A study of Mus musculus with 5 samples.

Results

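Gas6, Pros1, Axl, Mertk and Tyro3, which encode the ligands and the receptors of the TAM family, were examined in the RNA of EpH4 cells, a line of mouse mammary epithelial cells. Gas6 was picked by its lower RNA level in sgMef2d cells in these same libraries, so its values are given as a description and without a test. Pros1, Axl, Mertk and Tyro3 were added because they are the other ligand and the receptors of the family, not for their own values. Of these 5 genes, 4 were among the 12934 genes listed in the deposited counts, and all 4 passed the expression filter that left 12483 genes for testing. Mertk was not among the genes listed, so no level of it is given.

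The cells of both groups had been transduced with Cas9 by lentivirus and selected with blasticidin, and then received a control sgRNA (sgControl, 3 libraries) or an sgRNA against Mef2d (sgMef2d, 2 libraries) with selection in puromycin. The question behind the comparison was which gene programs depend on MEF2D, a transcription factor of the myocyte enhancer factor family. The labels number the libraries of a group and do not say whether the numbers are separate cultures or, for sgMef2d, different sgRNAs, so the p-values measure the spread between these libraries, which may be technical. The study's methods speak of stable clones and do not say how many clones were taken.

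TAM receptors are receptor tyrosine kinases at the cell surface. Gas6 and protein S, the product of Pros1, bridge them to phosphatidylserine, a lipid that dying cells and membrane vesicles expose. Both ligands are secreted vitamin K-dependent proteins, and they bind the lipid through a domain whose glutamates have been gamma-carboxylated. Gas6 binds each of the receptors and is the ligand of Axl, whereas protein S acts on Tyro3 and Mertk and is better known as an anticoagulant in plasma. The family is known for the clearance of dying cells, also in the involuting mammary gland, for restraint of innate immune responses and, in the case of Axl, for the motility and survival of tumor cells.

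Library totals lay between 13601145 and 20498563 counts. Replicate 1 of sgControl stood apart from the other control libraries. A chi-square of the counts was divided by its degrees of freedom, so that sampling noise gives 1. It was 10.3 and 13.3 for replicate 1 paired with replicates 2 and 3, and 1.99 for replicates 2 and 3. Pairs across the groups gave 10.6 to 12.7, and the pair of sgMef2d libraries 2.03. Replicate 1 of sgControl was thus about as far from the other controls as the groups were from each other. Values without this library are therefore given where leaving it out changed a count or a call named here. The RNA of the targeted gene Mef2d was 70.9 ± 6.36 CPM (SD, n = 3) in sgControl and 65.0 ± 1.12 CPM (SD, n = 2) in sgMef2d, where CPM are counts per 1e+06 counts after TMM normalization. This difference did not pass the threshold (adjusted p = 0.400, quasi-likelihood test of edgeR, Benjamini-Hochberg) but did so without sgControl replicate 1 (adjusted p = 0.00549), and RNA counts show neither the edited sequence nor the protein. All 6 epithelial markers were listed, with summed levels of 3770 to 3950 CPM in sgControl and 3560 to 3720 CPM in sgMef2d, and of these Krt18 fell (log2 change -0.26, adjusted p = 0.0207), a call lost without sgControl replicate 2 or either sgMef2d library. With sgControl replicate 1 left out, Krt7 was also called lower (-0.13, adjusted p = 0.00143) and Epcam higher (0.13, adjusted p = 0.00661). Of 6 macrophage markers 3 were listed, not among them Ptprc, Adgre1 or Itgam, and they summed to 3.41 to 4.18 CPM in sgControl and 4.82 to 5.12 CPM in sgMef2d. None of 4 endothelial markers was listed, and 4 of 6 fibroblast markers were, with 572 to 674 CPM in sgControl and 522 to 563 CPM in sgMef2d.

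The 4 listed genes differed widely in level. Because counts grow with the length of a transcript, levels of different genes were compared as TPM, counts per kilobase of exon scaled to a sum of 1e+06 over the genes listed. Axl reached 470, 529 and 531 TPM in sgControl replicates 1, 2 and 3 and 494 and 513 TPM in sgMef2d replicates 1 and 2. Gas6 followed with 187, 188 and 200 TPM in sgControl and 84.7 and 92.5 TPM in sgMef2d. Axl was thus above Gas6 in every library, and Axl lay at percentiles 97.7 to 98 of the genes listed. Tyro3 came next with 20.9, 20.1 and 24.2 TPM in sgControl and 20.3 and 20.1 TPM in sgMef2d, close to the median gene. Pros1 was last, with 4.11, 4.05 and 4.19 TPM in sgControl and 4.74 and 4.02 TPM in sgMef2d, at percentiles 20.7 to 23.2. The order of Axl, Gas6, Tyro3 and Pros1 was the same in all 5 libraries, and each step in it was larger than the spread between replicates.

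**Figure D1:**
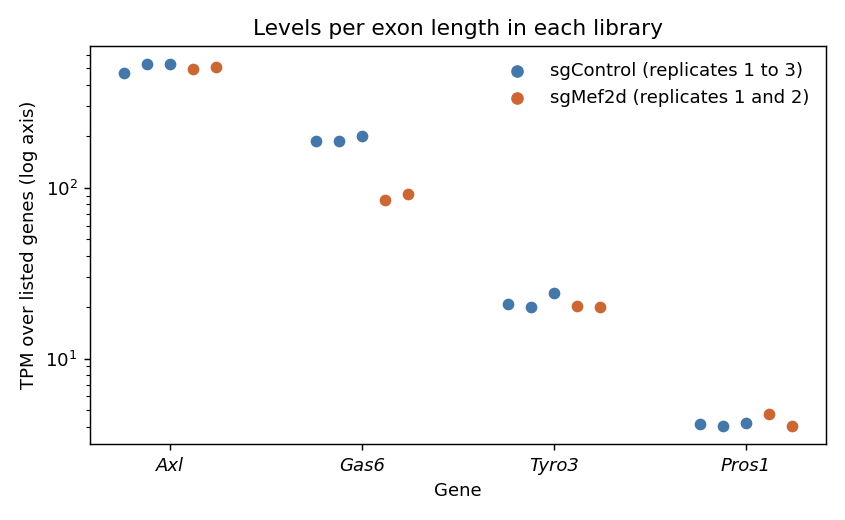
Levels of the listed genes per exon length. Each point is a library, the vertical axis is TPM over the genes listed on a log scale, and blue and orange points are sgControl and sgMef2d libraries. Axl, Gas6, Tyro3 and Pros1 keep their order in every library, and the Gas6 points of the 2 groups are apart.

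The receptor RNA listed for these cells was therefore mostly Axl, one of the receptors that Gas6 binds. Axl made up 95.9 ± 0.377% of the summed TPM of Axl and Tyro3 in sgControl (SD, n = 3) and 96.1 ± 0.136% in sgMef2d (SD, n = 2), values that overlapped between the groups. Of the vitamin K-dependent ligands, Gas6 made up 97.9 ± 0.0480% of the summed TPM of Gas6 and Pros1 in sgControl (SD, n = 3) and 95.3 ± 0.801% in sgMef2d (SD, n = 2), so that Gas6 was the larger of the pair in both groups. For every 100 TPM of Axl there were 39.9, 35.5 and 37.7 TPM of Gas6 in sgControl replicates 1, 2 and 3 and 17.1 and 18 TPM in sgMef2d replicates 1 and 2. This ratio carries the lower Gas6 level by which the gene was picked and is not a separate result. Mertk, the receptor best known from phagocytes, is missing from these shares.

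Gas6 (ENSMUSG00000031451.6) lies on the minus strand of chromosome 8 of GRCm38, from 13465374 to 13494490, and has 1 annotated transcript of 15 exons and 2548 bases. Its counts were 2899, 1904 and 1934 in sgControl replicates 1, 2 and 3 and 1081 and 1033 in sgMef2d replicates 1 and 2, or 141, 135 and 142 CPM against 63.6 and 69.5 CPM. Both sgMef2d libraries were below all 3 sgControl libraries, with values close together inside each group. Mean levels of Gas6 were 139 ± 3.77 CPM (SD, n = 3) in sgControl and 66.6 ± 4.20 CPM in sgMef2d (SD, n = 2), so that sgMef2d cells had 47.9% of the control level. The fitted log2 change (the log2 ratio of sgMef2d to sgControl) was -1.07 (standard error, SE, 0.066), and -1.06 without sgControl replicate 1. Among the 8038 genes whose log2 CPM averaged 4 or more, 3 had a lower log2 change, and among all 12483 genes tested 108 had. These values are the ones that picked the gene, and in RNA of whole cultures fewer cells with Gas6 RNA and less Gas6 RNA per cell cannot be told apart. Over the same groups the fibroblast marker Col1a2, a collagen gene, was also lower (424 ± 12.7 CPM against 291 ± 6.06 CPM, SD, n = 3 and 2, log2 change -0.54, adjusted p = 2.32e-04 in the edgeR test), while the fibroblast marker Dcn, the gene of decorin, was higher at a low level (1.38 ± 0.493 against 3.39 ± 0.122 CPM, adjusted p = 0.0203 in the edgeR test). The call of Dcn was lost without sgControl replicate 2 (adjusted p = 0.0534) and without sgMef2d replicate 1 or 2 (0.183 and 0.141). The other listed fibroblast markers did not pass. Col1a1, a second collagen gene, had 168 ± 38.0 CPM (SD, n = 3) in sgControl and 219 ± 21.9 CPM in sgMef2d (SD, n = 2), a log2 change of 0.39 with an adjusted p of 0.135, and Pdgfra, a growth factor receptor gene, 33.9 ± 2.18 and 28.4 ± 1.64 CPM, a log2 change of -0.25 with an adjusted p of 0.106. Without sgControl replicate 1 both were called, Col1a1 higher (0.21, adjusted p = 6.82e-05) and Pdgfra lower (-0.31, adjusted p = 0.00127), so that 2 of the 4 markers were higher and 2 lower. The part of such cells in the Gas6 difference was not tested.

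**Figure D2:**
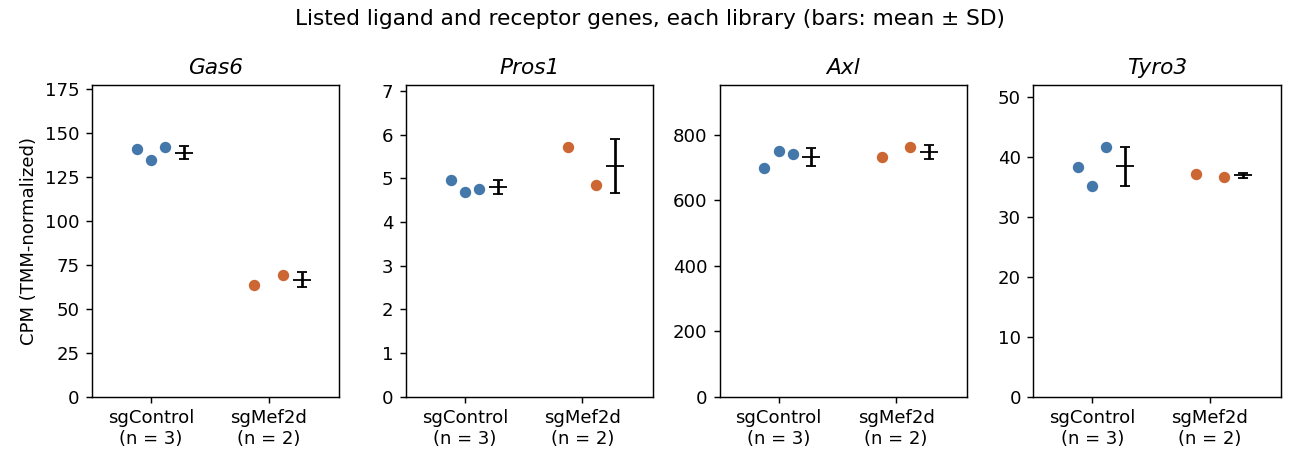
CPM of the 4 listed genes in each library. Points are libraries, black bars show the mean and the SD, and each vertical axis starts at 0. For Gas6 the 2 sgMef2d points (63.6 and 69.5 CPM) lie below all sgControl points, while the points of Pros1, Axl and Tyro3 overlap between the groups.

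No difference past the threshold was found for the other listed genes. Pros1 (ENSMUSG00000022912.8, chromosome 16, 62854307 to 62929346, plus strand), the gene of the second ligand, had 4.97, 4.68 and 4.76 CPM in sgControl and 5.71 and 4.85 CPM in sgMef2d. The sgMef2d libraries straddled the highest control library. Its log2 change was 0.14 (SE 0.16, 95% interval -0.22 to 0.49), with an adjusted p of 0.668 in the edgeR test. Only 65 to 102 counts per library stood behind these levels, which makes this the widest interval of the 4 genes.

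Axl (ENSMUSG00000002602.16, chromosome 7, 25757273 to 25788705, minus strand), which encodes the receptor with the highest affinity for Gas6, had 700, 752 and 742 CPM in sgControl and 733 and 762 CPM in sgMef2d. These values overlapped between the groups. The log2 change was 0.03 (SE 0.059, 95% interval -0.10 to 0.16, adjusted p = 0.798 in the edgeR test) and rested on 10126 to 14361 counts per library. Without sgControl replicate 1 it was 0.0011 (SE 0.035, adjusted p = 0.986).

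Tyro3 (ENSMUSG00000027298.17, chromosome 2, 119797733 to 119818104, plus strand), a receptor of both ligands, had 38.3, 35.2 and 41.6 CPM in sgControl and 37.2 and 36.7 CPM in sgMef2d. Both sgMef2d values lay inside the range of the controls. The log2 change was -0.05 (SE 0.084, 95% interval -0.24 to 0.13, adjusted p = 0.756 in the edgeR test), and its direction turned without sgControl replicate 3 (0.0044) and with a replicate block (0.0067). Mertk, the third receptor gene (ENSMUSG00000014361.5, chromosome 2, 128698956 to 128802894, plus strand), was not among the genes listed, so its level is not given.

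None of these 3 tested genes passed the threshold of an adjusted p below 0.05 in the edgeR test, at an unadjusted p below 0.05, in DESeq2 or in limma-voom. Over all 12483 genes tested, 7.95% passed it, 3.67% higher and 4.28% lower in sgMef2d, and 23.2% had an unadjusted p below 0.05. A missed threshold does not show equal levels, and the 95% intervals bound the difference of each gene. No 50-base word of the annotated transcripts of the 5 genes occurred in transcripts of another gene, and the only exonic overlap was 34 bases of Gas6 with Tmem255b on the opposite strand, a gene that was not listed.

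Promoter sequence of Gas6 and of its receptor gene Axl is shown because MEF2D is a DNA-binding factor. The 250 bases before the RefSeq start site (GRCm38.p6) are given 5′ to 3′ on the strand of the gene, for Gas6 from chr8:13494536-13494785 and for Axl from chr7:25788734-25788983, both on the minus strand. Capitals mark the letters GGGCGG (the GC box bound by Sp1 and related factors) and GGAATG (the letters of TEAD sites) on either strand.
Gas6: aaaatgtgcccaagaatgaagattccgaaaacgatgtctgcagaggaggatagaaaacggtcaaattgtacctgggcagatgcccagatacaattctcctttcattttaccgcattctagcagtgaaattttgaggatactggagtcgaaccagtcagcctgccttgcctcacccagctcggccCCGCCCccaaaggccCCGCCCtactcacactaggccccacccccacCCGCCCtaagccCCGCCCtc
Axl: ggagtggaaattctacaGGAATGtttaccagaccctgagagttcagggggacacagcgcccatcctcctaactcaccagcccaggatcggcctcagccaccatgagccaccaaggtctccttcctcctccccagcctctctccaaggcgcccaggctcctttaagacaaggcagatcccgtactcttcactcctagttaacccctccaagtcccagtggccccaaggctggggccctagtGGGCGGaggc

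The consensus of MEF2 sites was not found in either window, nor in those of Pros1, Mertk and Tyro3, whereas 2.92% of 32817 such windows in the RefSeq table held it. GGGCGG occurred 4 times before Gas6, 5 times before Pros1, 3 times before Mertk and Tyro3 each and once before Axl, and 32.7% of all windows held it. GGAATG occurred before Axl and before none of the other 4 genes (12.6% of all windows), and the AP-1 letters TGANTCA before none of the 5 (6.75% of all windows). Both strands were searched, and 2 of the GGGCGG matches before Pros1 overlap. These are matches of letters in 250 bases, and they say nothing of binding there or at more distant sites.

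The genes next to Gas6 were read in the same way. Of the 3 nearest genes tested on each side, whose start sites lay up to 291.1 kb away, 0 of 6 passed the threshold in the edgeR test, 0 had an unadjusted p below 0.05, and 0 passed in DESeq2 or limma-voom. Their log2 changes lay between -0.06 (Cdc16) and 0.14 (Rasa3). Around all 5 genes, the start sites of the 30 neighbors lay up to 1997.7 kb away, so some are not close by. Of these, 0 of 30 passed the threshold in the quasi-likelihood test, 5 had an unadjusted p below 0.05, and 0 passed in DESeq2 or limma-voom. Over all genes tested 7.95% passed it and 23.2% had an unadjusted p below 0.05. When sgControl replicate 1 was left out, 3 of the 30 passed in the edgeR test. Tfdp1 of the Gas6 neighbors (log2 change 0.11, adjusted p = 0.0180) was higher. So was 4930453N24Rik, 1916.9 kb from Pros1 (0.23, adjusted p = 0.00549). Anapc1 of the Mertk neighbors was lower (-0.11, adjusted p = 0.0292). In that fit 14.6% of all genes were called higher and 14.8% lower. The 3 neighbors were named after their values were seen.

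**Figure D3:**
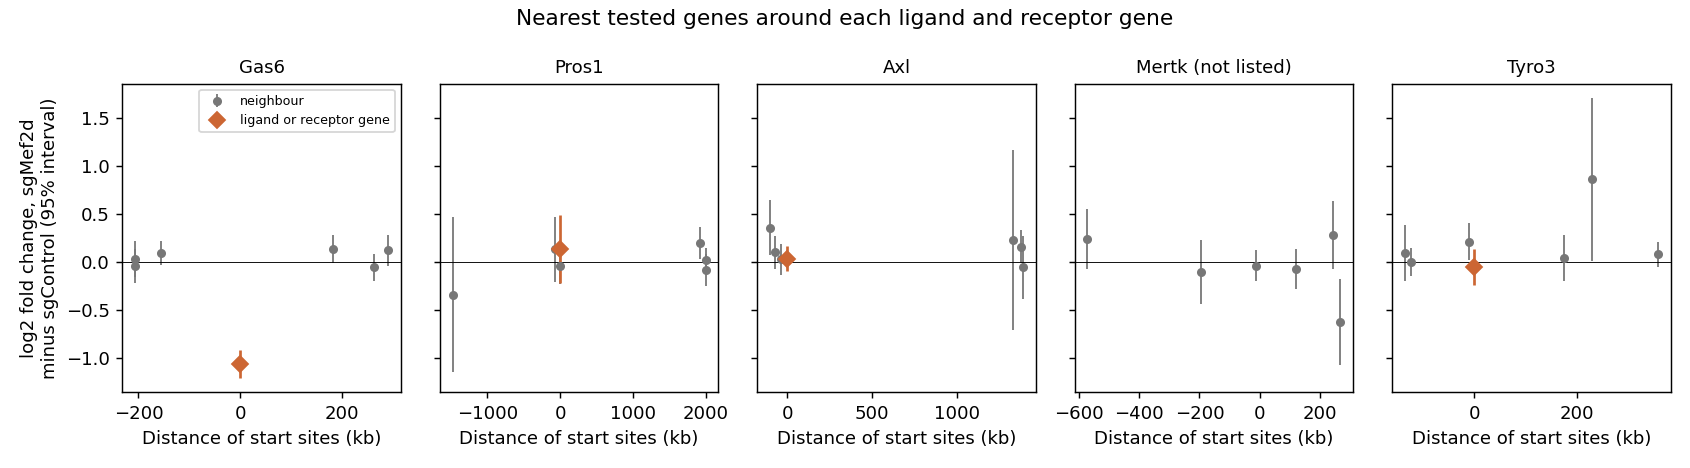
Log2 fold change (sgMef2d minus sgControl) of the nearest genes tested against the distance of their start sites in kb, with 95% intervals. Gray points are neighbors and orange diamonds are the listed ligand and receptor genes. The 6 neighbors of Gas6 lie between -0.06 and 0.14, while Gas6 is at -1.07.

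The genes whose pattern over the 5 libraries was nearest to that of Gas6 were taken from the 8037 other genes whose log2 CPM averaged 4 or more, by the root mean square difference of the centered log2 CPM. Nearest was Ccn5 (0.061), which encodes a matricellular protein and had 48.8, 42.3 and 46.0 CPM in sgControl and 22.2 and 23.8 CPM in sgMef2d. Synpo (0.080), the gene of the actin-associated synaptopodin, had 34.2 ± 2.69 CPM (SD, n = 3) in sgControl and 17.3 ± 0.711 CPM in sgMef2d (SD, n = 2). Ephb6 (0.094), an Eph receptor without kinase activity, had 23.1 ± 1.98 and 11.9 ± 0.730 CPM. Lbp (0.098), which encodes a lipopolysaccharide-binding protein, had 31.5 ± 1.05 and 15.2 ± 1.09 CPM, and Cp (0.113), the gene of ceruloplasmin, 446 ± 4.86 and 244 ± 3.12 CPM. The likeness is the lower level in sgMef2d that also picked Gas6, and no more than 5 libraries are behind it.

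**Figure D4:**
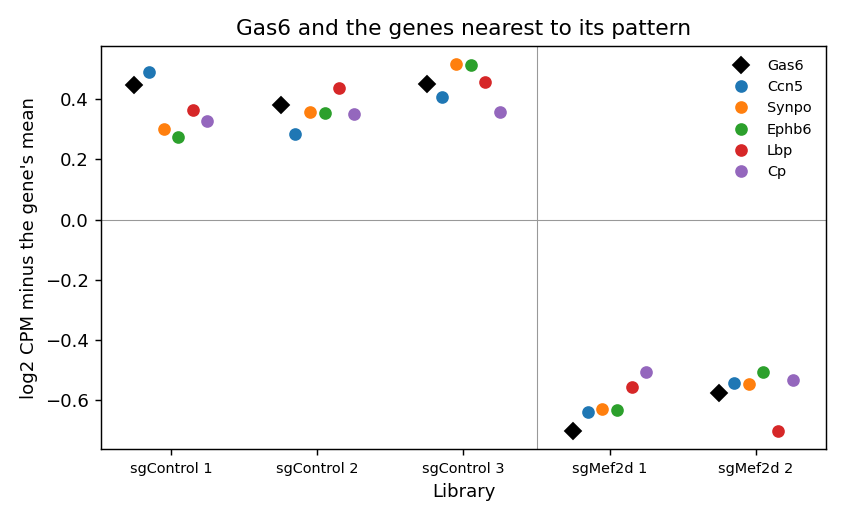
Centered log2 CPM (log2 CPM minus the mean of the gene) of Gas6 and of the 5 genes nearest to it, by library. Black diamonds are Gas6. All 6 genes are above 0 in the sgControl libraries and below 0 in the sgMef2d libraries.

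The wider pathway was read in lists of 93 genes other than the 5 above, of which 70 were listed and tested. Of these, 8 (11.4%) passed the threshold of the edgeR test, 4 higher and 4 lower in sgMef2d, against 7.95% of all genes tested. The groups did not overlap in 36 of the 70 genes (51.4%), as against 41.1% of all genes. The median log2 change was -0.05 and that of all genes tested 0.0031, with 45 genes below and 25 above 0. Without sgControl replicate 1 the number rose to 28 of 70 genes (40.0%), 8 higher and 20 lower, where 14.6% of all genes were called higher and 14.8% lower.

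Of the other reported ligands of TAM receptors, Lgals3 was listed and Tub and Tulp1 were not. Lgals3 encodes galectin-3, a secreted lectin that has been described as a ligand of Mertk. It had 185, 182 and 163 CPM in sgControl and 226 and 222 CPM in sgMef2d, with both sgMef2d libraries above the controls. It rose with a log2 change of 0.34 (SE 0.065) and an adjusted p of 0.00853 in the edgeR test, a call that was lost without sgMef2d replicate 1 or 2 (adjusted p = 0.139 and 0.122).

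The vitamin K cycle, on which the activity of Gas6 and protein S depends, had 8 genes, all listed and tested. Of these, 1 fell and 7 did not pass, where 4.28% of all genes tested fell and 3.67% rose. The median log2 change of the 8 was -0.06. Calu, the gene of calumenin, a protein of the endoplasmic reticulum that inhibits the cycle, had 997, 929 and 947 CPM in sgControl and 813 and 796 CPM in sgMef2d. Calu fell with a log2 change of -0.25 (SE 0.059) and an adjusted p of 0.0254 in the edgeR test, and the call was lost without sgControl replicate 2 (adjusted p = 0.0798) and without sgMef2d replicate 1 or 2 (0.227 and 0.326). Furin, a protease that processes precursor proteins, was called lower as well without sgControl replicate 1 (-0.05 with all libraries, adjusted p = 0.768, and -0.13 without it, adjusted p = 0.0225). Ggcx, the gamma-carboxylase itself, had 10.8 ± 0.543 CPM (SD, n = 3) in sgControl and 10.4 ± 1.16 CPM in sgMef2d (SD, n = 2), a log2 change of -0.06 (95% interval -0.34 to 0.21, adjusted p = 0.807 in the edgeR test). Vkorc1, which regenerates reduced vitamin K, had mean levels of 10.2 CPM in sgControl and 11.1 CPM in sgMef2d. Its log2 change was 0.11 (95% interval -0.14 to 0.37, adjusted p = 0.614 in the edgeR test). Vkorc1l1 of the same list stood higher, at mean levels of 103 CPM in sgControl and 102 CPM in sgMef2d. The log2 change of Vkorc1l1 was -0.02 (95% interval -0.15 to 0.12, adjusted p = 0.909 in the edgeR test). Of 13 other genes of vitamin K-dependent proteins 4 were listed, and 0 passed the threshold in edgeR, DESeq2 or limma-voom, with 2 at an unadjusted p below 0.05 (all genes, 23.2%). Prrg1, a transmembrane Gla protein and the one with the highest average log2 CPM, had a log2 change of -0.12 (95% interval -0.35 to 0.12, adjusted p = 0.569).

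The proteases that release the outer part of Axl and Mertk from the cell, with their regulators, formed a list of 5 genes. All were tested and 0 passed the threshold in edgeR, DESeq2 or limma-voom, with 1 at an unadjusted p below 0.05 (all genes, 23.2%). That gene was Rhbdf2, a regulator of ADAM17, with 55.9 ± 1.57 CPM (SD, n = 3) in sgControl and 64.0 ± 2.17 CPM in sgMef2d (SD, n = 2), a log2 change of 0.20 (adjusted p = 0.0968 in the edgeR test). Rhbdf2 was called higher without sgControl replicate 1 (0.18, adjusted p = 0.0152). Adam10 and Adam17, the proteases, had log2 changes of -0.0022 (95% interval -0.14 to 0.14) and 0.01 (95% interval -0.18 to 0.20). Timp3, an inhibitor of ADAM17 and the gene with the highest average log2 CPM of the list, reached 828 ± 41.7 CPM (SD, n = 3) in sgControl and 869 ± 16.0 CPM in sgMef2d (SD, n = 2), a log2 change of 0.07 (adjusted p = 0.551 in the edgeR test).

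Of 24 genes of adaptors, kinases and Rac regulators downstream of the receptors, 22 were tested, with a median log2 change of -0.04. Past the threshold, 1 was higher and 1 lower, where 3.67% of all genes were higher and 4.28% lower. Pik3r1, which encodes the p85α regulatory subunit of PI3-kinase, had 79.4, 96.0 and 95.8 CPM in sgControl and 49.0 and 55.8 CPM in sgMef2d. The groups did not overlap. Pik3r1 fell with a log2 change of -0.78 (SE 0.096) and an adjusted p of 6.30e-04 in the edgeR test and kept its call under all 14 alternatives, with an adjusted p of at most 0.0207. The genes of the catalytic subunits, Pik3ca and Pik3cb, had log2 changes of -0.16 (adjusted p = 0.217) and -0.04 (adjusted p = 0.807), Pik3ca with an adjusted p of 0.00185 without sgControl replicate 1. Grb2, an adaptor that binds phosphorylated receptors, had 95.5, 93.2 and 96.4 CPM in sgControl and 109 and 112 CPM in sgMef2d. Grb2 rose with a log2 change of 0.22 (SE 0.058) and an adjusted p of 0.0417 in the edgeR test, and this call was lost under 6 of 14 alternatives, with DESeq2 (adjusted p = 0.0945), with a replicate block (0.0672), without sgControl replicate 2 or 3 (0.164 and 0.0800) and without sgMef2d replicate 1 or 2 (0.273 and 0.388). Without sgControl replicate 1, 1 of the 22 genes was called higher and 6 lower. Of all genes, 14.6% were then called higher and 14.8% lower.

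Genes of phosphatidylserine exposure, which sets the lipid that the ligands bind, numbered 11, of which 9 were tested. The number past the threshold was 0 in edgeR, DESeq2 and limma-voom, with 4 of 9 at an unadjusted p below 0.05 in edgeR, where 23.2% of all genes were. Without sgControl replicate 1, 1 was called higher and 3 lower, where 14.6% of all genes were called higher and 14.8% lower. Atp11a, a flippase gene and the one with the highest average log2 CPM, had 467 ± 33.0 CPM (SD, n = 3) in sgControl and 481 ± 7.61 CPM in sgMef2d (SD, n = 2), a log2 change of 0.04 (adjusted p = 0.748 in the edgeR test) that turned to -0.01 without sgControl replicate 1. Xkr8, the scramblase of apoptotic cells, stood near 3 CPM in both groups (3.02 ± 0.209 and 2.85 ± 0.128 CPM, SD, n = 3 and 2), and its 95% interval of -0.53 to 0.36 on the log2 scale was the widest of the list.

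Of 19 other engulfment genes, 11 were tested, with a median log2 change of -0.14. Past the threshold, 1 fell and none rose, where 4.28% of all genes fell and 3.67% rose. Itgb5 encodes the β5 subunit of the αvβ5 integrin, a receptor for the bridging protein MFG-E8. It had 228, 233 and 244 CPM in sgControl and 168 and 171 CPM in sgMef2d. Itgb5 fell with a log2 change of -0.47 (SE 0.058) and an adjusted p of 6.57e-04 in the edgeR test and kept its call under all 14 alternatives, with an adjusted p of at most 0.0313. The gene of its partner subunit, Itgav, had a log2 change of -0.05 (adjusted p = 0.677) and Mfge8 itself of -0.12 (adjusted p = 0.387), the latter with an adjusted p of 0.00328 without sgControl replicate 1. This list moved most with that library. Without it, 8 of the 11 genes were called lower and 1 higher, where 14.8% of all genes were called lower and 14.6% higher. Lrp1, the gene of an engulfment receptor that was singled out after its values were seen, had 462 CPM in sgControl replicate 1 and 703 and 755 CPM in replicates 2 and 3, with 615 and 635 CPM in sgMef2d, so that its log2 change of -0.03 (adjusted p = 0.924) became -0.22 (adjusted p = 1.75e-07) without replicate 1.

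**Figure D5:**
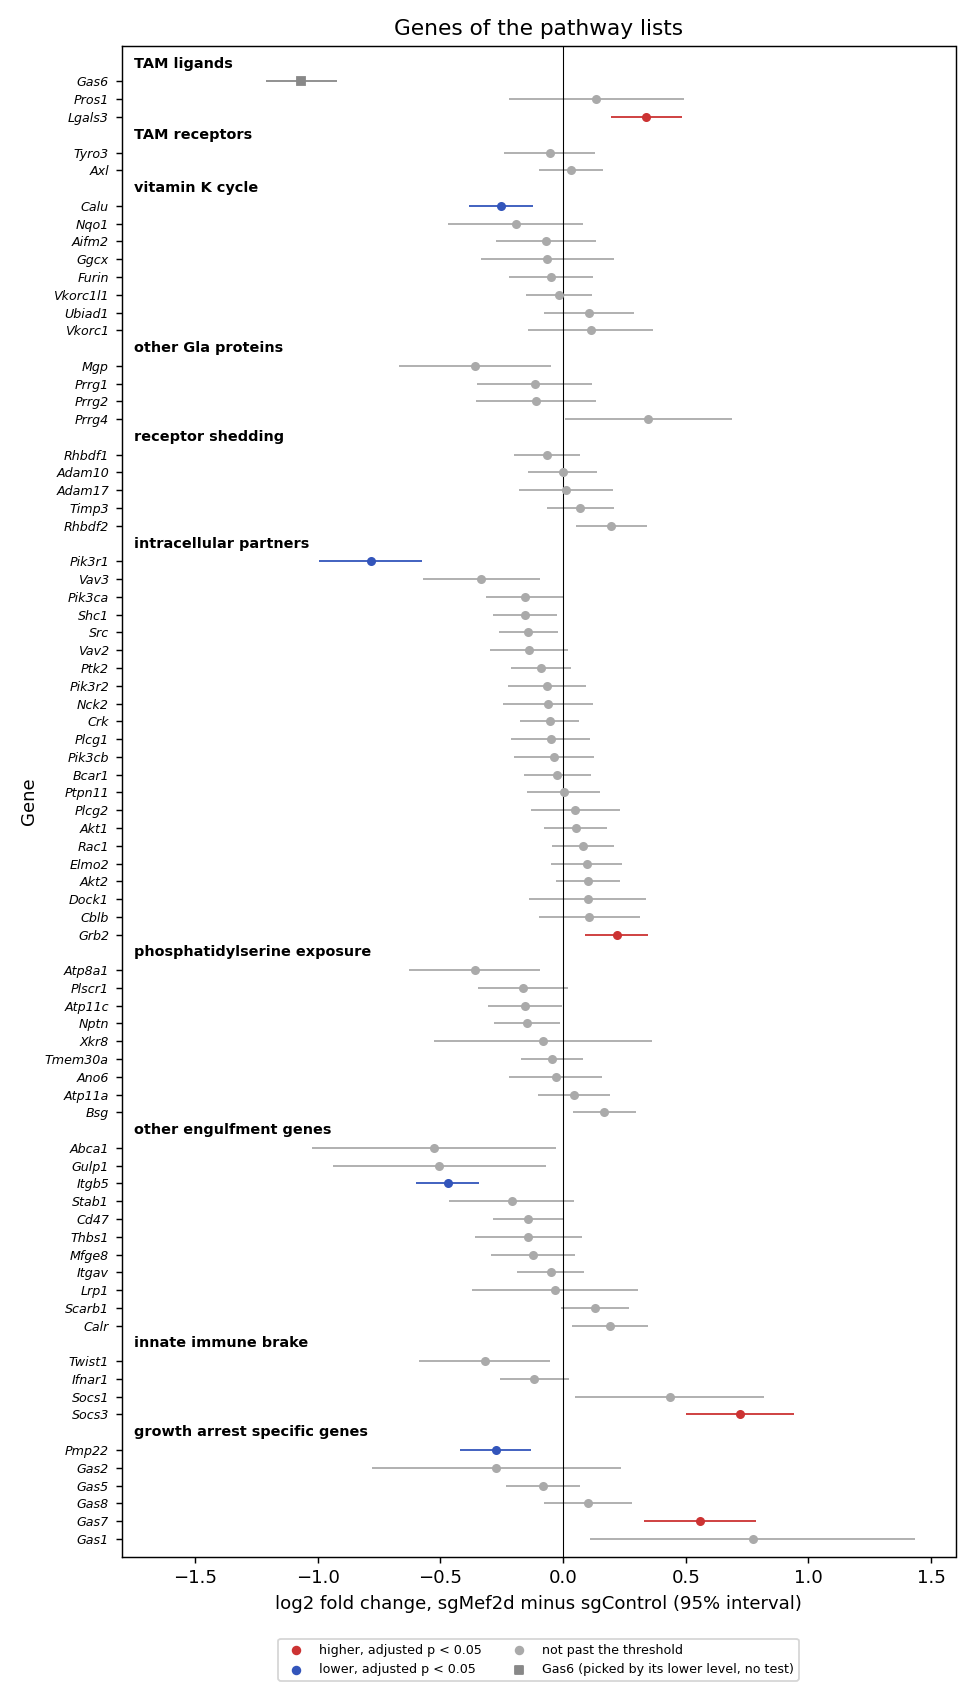
Log2 fold change (sgMef2d minus sgControl) of the tested genes of the pathway lists with 95% intervals. Red and blue points passed the threshold higher and lower, light gray points did not, and the gray square is Gas6, shown without a test. Pik3r1 (-0.99 to -0.57) and Itgb5 (-0.60 to -0.34) lie below 0 and Socs3 (0.50 to 0.94) above it, and 62 of the 70 genes besides Gas6, Pros1, Axl and Tyro3 did not pass.

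TAM receptors restrain innate immune responses, in which the interferon receptor and the SOCS inhibitors take part. The 4 genes read for this were all tested, with a median log2 change of 0.16. Past the threshold, 1 rose and none fell, where 3.67% of all genes rose and 4.28% fell. Socs3, an inhibitor of cytokine signaling, had 30.9, 31.5 and 24.6 CPM in sgControl and 49.4 and 46.6 CPM in sgMef2d. Socs3 rose with a log2 change of 0.72 (SE 0.10) and an adjusted p of 0.00126 in the edgeR test and kept its call under all 14 alternatives, with an adjusted p of at most 0.0367. Ifnar1, Socs1 and Twist1 did not pass, with log2 changes of -0.12, 0.44 and -0.32 (adjusted p = 0.303, 0.161 and 0.141), Socs1 with an adjusted p of 0.0468 without sgControl replicate 1.

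Gas6 is named for its expression in growth-arrested cells, and the genes named alike did not move in a single direction. Of 6 such genes, all tested, 1 rose and 1 fell past the threshold, where 3.67% of all genes rose and 4.28% fell. The median log2 change of the 6 was 0.01. Gas7, an actin-binding protein of neurons and other cells, had 15.0, 17.4 and 16.9 CPM in sgControl and 22.5 and 25.7 CPM in sgMef2d. Gas7 rose with a log2 change of 0.56 (SE 0.10) and an adjusted p of 0.00716 in the edgeR test, and lost its call without sgMef2d replicate 2 (adjusted p = 0.153). Pmp22, first described as Gas3 and known as a myelin protein gene, had 66.0, 67.8 and 63.0 CPM in sgControl and 54.7 and 53.8 CPM in sgMef2d. It fell with a log2 change of -0.28 (SE 0.066) and an adjusted p of 0.0275 in the edgeR test, and the call was lost with DESeq2 (adjusted p = 0.0511), without sgControl replicate 2 (0.118) and without sgMef2d replicate 1 or 2 (0.208 and 0.281). Gas1, Gas2, Gas5 and Gas8 had log2 changes of 0.77, -0.27, -0.08 and 0.10 that did not pass, and Gas1 and Gas2 stood at no more than 3.47 CPM in any library.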

How the data were processed

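RNA of 5 EpH4 libraries was measured (poly(A) selection, dUTP strand marking). The authors checked the reads with FASTQC, aligned them with STAR to GRCm38 and used RSeQC, and the submitters' processing notes also name Subread and CASAVA. The deposited values are raw counts per gene without normalization, and every one of the 12934 genes listed reached 11 counts in some library. All 12934 identifiers matched GENCODE M21, 12811 with the same version. No column was left unused.

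These counts were normalized by TMM and tested with the quasi-likelihood test of edgeR 4.0.16 (R 4.3.3), called the edgeR test above (bias-adjusted form, expression filter by group, Benjamini-Hochberg adjustment over 12483 genes, threshold 0.05). Groups followed the titles. CPM used the normalized totals, and log2 CPM a prior count of 2. TPM used the length of all exons of a gene together. Intervals are 95% and come from the fit, without identification of PCR copies. At the depth found, 3 counts correspond to 0.146 to 0.221 CPM. DESeq2 1.42.0, limma-voom (limma 3.58.1), other normalizations and filters, a block for the replicate number and omission of each library in turn were alternatives. The tests were tried on simulated counts. The genes, the lists and the naming rule were chosen with earlier results of these data known. The rule named the 5 genes, of each list up to 4 genes past the threshold or else the one with the highest average log2 CPM, and the 5 genes nearest to Gas6. Further list members are given for their role in the pathway and were chosen after their values were seen. A gene of the lists is not reported here and is left out of their counts. Protein sequences were not used here.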

Additional observations from a re-analysis of the deposited data

How the results depend on the processing

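Of the 14 alternatives run for each gene, Axl and Pros1 kept their direction and stayed short of the threshold in all, with log2 fold changes from 4.00e-04 to 0.06 (adjusted p from 0.748 to 0.999) and from 0.0030 to 0.24 (adjusted p from 0.598 to 0.997). Tyro3 turned to 0.0067 with a replicate block, and between libraries left out singly it ran from -0.11 to 0.0044. Leaving out each library moved the log2 fold change of Gas6 between -1.14 and -1.01, and that of Atp11a between -0.0144 and 0.076. The genes called over all genes tested numbered 2900 at an unadjusted p below 0.05 and between 234 (without sgMef2d replicate 2) and 3639 (without sgControl replicate 1) with a library left out, and those of the pathway lists between 3 and 28. Without an sgMef2d library the lone sample is assumed to vary like the controls. Library deviations from the group mean had correlations of 0.01 and 0.00 for the same number and -0.01 and 0.00 for unlike numbers. The deviations of the 2 sgMef2d libraries mirror each other, so this check cannot settle whether the numbers pair the libraries. The block is given as a setting only. Under it, of the list genes called, Grb2 lost its call (adjusted p = 0.0672) and the other 7 kept theirs. With the length of the longest transcript in place of all exons, Gas6 stood at 31.9 and 14.9 TPM per 100 TPM of Axl in sgControl and sgMef2d, and the order of the 4 genes was the same. The prior count of 0.5 gave the same 5 genes nearest to Gas6. No alternative could be run for Mertk. Pros1, at 65 to 102 counts, is limited by counting error.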
